A study of Mus musculus with 15 samples.

Results

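The 10 transcripts described here, Pmel, Mlana, Tyr, Tyrp1, Dct, Slc45a2, Oca2, Gpr143, Mitf and Sox10, belong to pigment cells and melanoma. They were selected by gene name, at a time when earlier results of these data were known. They are 10 of 53465 genes in a table of normalized counts from 15 RNA sequencing libraries. The libraries were made from cells sorted out of tumors that grew from B16-F0, a pigmented mouse melanoma cell line derived from C57BL/6 mice, after subcutaneous injection into CAG-GFP mice of 8 to 14 weeks and both sexes. These mice carry GFP under a promoter that is active in nearly all cells, so that GFP marks the cells of the host. At day 15 the GFP+ CD34+ cells that lacked the hematopoietic lineage markers were divided by CD31 and VEGFR2 into endovascular progenitor (EVP), transit amplifying (TA) and definitive differentiated (D) cells. All 3 populations therefore came from tumor-bearing mice of the same kind, there was no population from skin or from tumor-free mice, and each population had 5 libraries. The sources used here do not state whether a replicate number stands for a shared mouse or tumor, nor whether mice were pooled. The p-values thus measure the spread between these libraries, part of which may be technical.

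Melanin is made inside melanosomes, organelles related to lysosomes. Pmel forms the fibrils on which the pigment is laid down, Mlana is a membrane protein of the maturing melanosome, Tyr oxidizes tyrosine in the first and limiting step of the synthesis, and Dct and Tyrp1 act on later intermediates of the black pigment. Slc45a2 and Oca2 are transporters of the melanosome that set its ionic conditions, and Gpr143 is a receptor in its membrane. Mitf is the basic helix-loop-helix factor that drives most of these genes through E-box sequences, and it also acts in mast cells and osteoclasts. Sox10 is a factor of the neural crest that activates Mitf and is shared with Schwann cells. None of the 10 is a usual marker of endothelial cells, and the comparison asks how their reads were divided among the 3 sorted populations.

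The stretches before the transcription start of the 3 genes of the tyrosinase family, Tyr, Tyrp1 and Dct, are shown because all 3 hold the extended E-box TCATGTG. The sequences are from RefSeq on GRCm38.p6, each with the 250 bases before the start, read 5′ to 3′ on the strand of the gene, with every match to one of the 3 E-box motifs named after the sequences, on either strand, in capitals.
Tyr, chr7:87493513-87493762, minus strand: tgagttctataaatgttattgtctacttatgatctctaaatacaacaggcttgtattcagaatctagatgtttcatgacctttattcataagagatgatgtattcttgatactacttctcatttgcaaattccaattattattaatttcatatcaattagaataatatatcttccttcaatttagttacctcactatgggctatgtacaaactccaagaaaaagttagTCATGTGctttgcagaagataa
Tyrp1, chr4:80833963-80834212, plus strand: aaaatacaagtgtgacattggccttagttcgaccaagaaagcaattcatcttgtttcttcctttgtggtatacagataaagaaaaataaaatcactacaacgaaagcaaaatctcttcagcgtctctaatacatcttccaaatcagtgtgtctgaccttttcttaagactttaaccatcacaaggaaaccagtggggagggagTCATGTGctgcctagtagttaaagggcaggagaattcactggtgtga
Dct, chr14:118052247-118052496, minus strand: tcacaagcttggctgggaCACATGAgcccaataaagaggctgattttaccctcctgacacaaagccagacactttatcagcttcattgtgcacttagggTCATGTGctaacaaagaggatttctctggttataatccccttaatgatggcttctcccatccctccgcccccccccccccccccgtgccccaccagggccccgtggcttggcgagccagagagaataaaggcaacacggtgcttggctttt
The motif began 22 bases before the start in Tyr and 47 bases before it in Tyrp1. In Dct it occurred at 151 bases and again, on the opposite strand, at 232 bases. TCATGTG contains CATGTG, so each of these sites counts for both. The windows searched had 300 bases, from 250 before to 50 after the start, and were found for 5 of the 10 genes (Tyr, Tyrp1, Dct, Oca2 and Mitf, the last with 3 starts). TCATGTG was present in 3 of these 5 genes, the 3 shown here because they hold it, and in 3.77% of all 32851 promoters in the same table. CATGTG was present in 4 of the 5, Oca2 being the fourth, and in 14.2% of all promoters, while CACGTG was in none of the 5 and in 7.15% of all. These are matches of letters in a short window and say nothing of binding.

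Together the 10 transcripts took 0.117% to 1.25% of the reads of a library. Their share was 0.456%, 0.472%, 1.25%, 0.774% and 0.779% in the TA libraries (replicates 1 to 5), against 0.310%, 0.171%, 0.316%, 0.224% and 0.446% in EVP and 0.160%, 0.151%, 0.325%, 0.117% and 0.210% in D. Every TA library was above every EVP and D library, while EVP and D overlapped. On normalized counts, the mean sum in TA was 2.24 times that in EVP and 3.67 times that in D, and the sum in EVP was 1.63 times that in D. These are bulk libraries, in which fewer cells of a type and less RNA per cell cannot be told apart, and the cell of origin of the reads was not tested. Of the 10 transcripts, 9 were above 3 reads, the limit of detection used here, in all 15 libraries, Gpr143 being the exception.

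Between 5394356 and 26513073 reads were counted on genes per library, with the lowest number in EVP replicate 1, and 3 reads corresponded to 1.81 to 10.5 normalized counts. Replicate 1 of each population had reads on 75.9% to 96.2% of the olfactory receptor genes and 8.50% to 10.6% of its reads on the predicted gene Gm10800. The olfactory share was graded, with 65.1% in TA replicate 3, 55.4% in EVP replicate 2 and 51.7% in TA replicate 2. In replicates 4 and 5 it was 2.70% to 4.55%. TA replicate 3 also had the most Gm10800 outside replicate 1 (0.701%), and it held the highest value of 7 of the 10 transcripts. The link between these was not tested. The 9 pan-endothelial genes summed to 94636 to 154130 normalized counts in D, 5696 to 68540 in TA and 2230 to 4198 in EVP. They include Pecam1 and Kdr, the genes of CD31 and VEGFR2, so that this order is in part set by the sort. With limma, 6 of 9 were called higher in D than in TA (2 called by edgeR), where 3199 of 25549 genes were called in either direction. Against EVP, 8 of 9 were called higher in TA (1.94% of all genes). Tek was instead 1578 in EVP and 583 in TA, without a call. The 6 fibroblast markers ran the opposite way, from 503964 to 798906 in EVP through 117621 to 365693 in TA to 693 to 2776 in D.

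**Figure D1:**
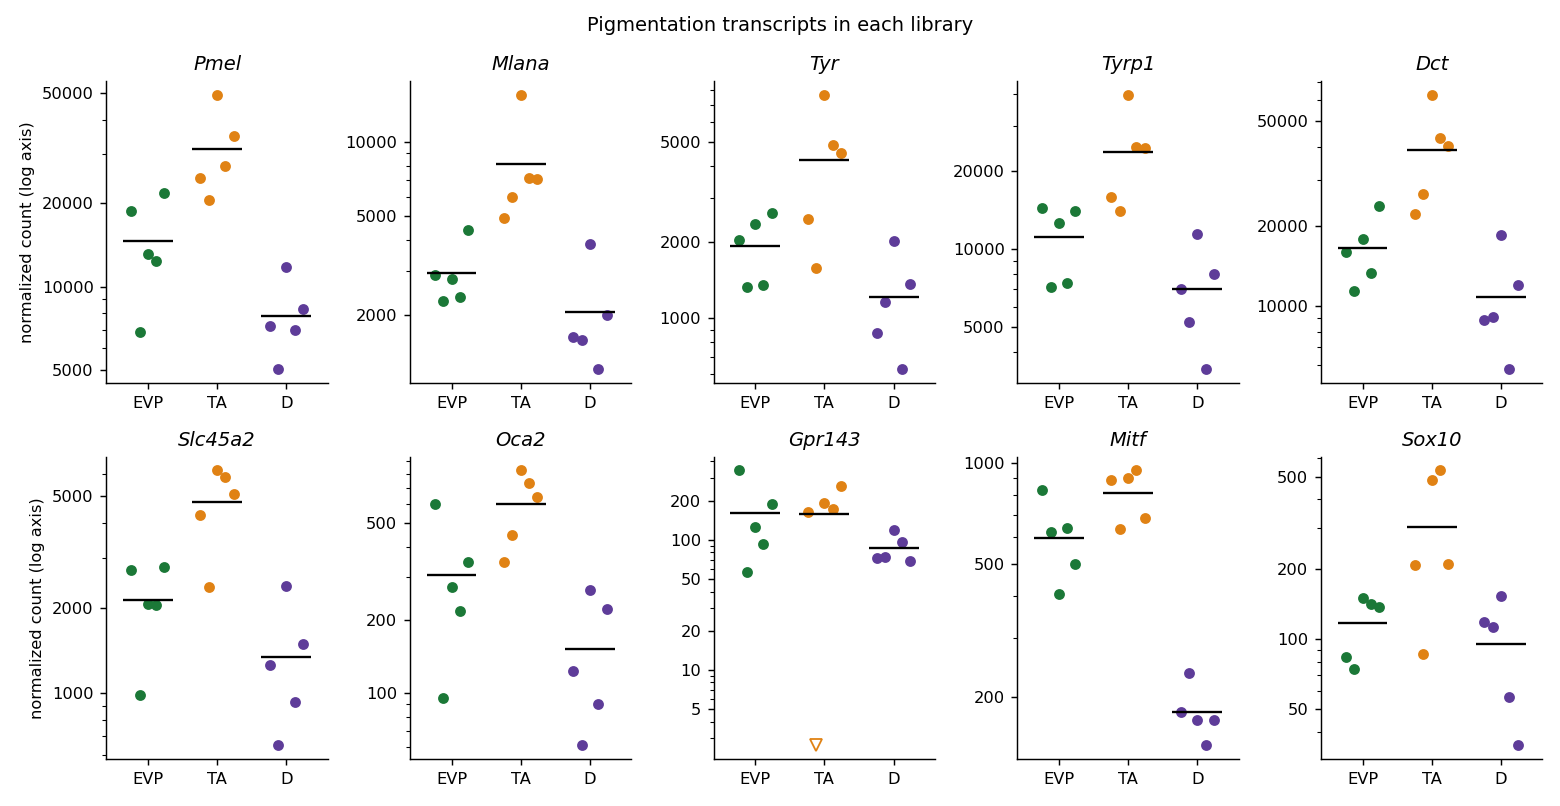
Normalized counts of the 10 transcripts on log axes, with a point for each library (replicates 1 to 5 from left to right), a line at the mean of 5 libraries, and an open triangle at the limit of 3 reads where no read was found. The 6 panels of Pmel, Mlana, Tyrp1, Dct, Oca2 and Mitf have every TA point above every D point, and the open triangle is Gpr143 in TA replicate 2.

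Pmel (chr10:128704195-128720238, plus strand, GRCm38), the fibril protein, had the highest level per kilobase of exon of the 10 transcripts in each population, with means of 6352 normalized counts per kilobase in EVP, 13684 in TA and 3425 in D. In single libraries it ranked between the percentiles 99.4 and 100 of all genes with a known length. Its normalized counts were 24701, 20536, 49277, 27204 and 35099 in TA, 18711, 6855, 13150, 12345 and 21730 in EVP, and 7186, 5023, 11747, 6985 and 8310 in D. All TA libraries were above all D libraries, and EVP replicate 5 reached into the TA range. The mean was 31364 ± 11333 (SD, n = 5) in TA, 14558 ± 5808 in EVP and 7850 ± 2479 in D. With limma, Pmel was higher in TA than in D by 1.98 ± 0.30 on the log2 scale (estimate and standard error, adjusted p = 2.03e-04) and in EVP it was lower than in TA by 1.14 ± 0.30 (adjusted p = 0.0408). Between EVP and D the difference was 0.84 ± 0.30 and missed the threshold of 0.05 (limma, adjusted p = 0.0577).

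Mlana (chr19:29697921-29708448, plus strand), the melanosomal membrane protein, was measured at 4898, 5952, 15451, 7121 and 7052 normalized counts in TA, at 2904, 2274, 2781, 2355 and 4398 in EVP, and at 1628, 1581, 3854, 1202 and 1996 in D. TA did not overlap with either of the other populations, and TA replicate 3 was far above the other 4. With limma, Mlana was higher in TA than in D by 1.98 ± 0.31 (adjusted p = 3.65e-04) and lower in EVP than in TA by 1.38 ± 0.31 (adjusted p = 0.0204). It was the single transcript of the 10 whose EVP and TA libraries did not overlap, where 1.59% of all 25549 genes tested were higher in TA without overlap.

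Tyr (chr7:87424771-87493512, minus strand) had the lowest level per kilobase of the tyrosinase family, with means of 273 normalized counts per kilobase in EVP, 593 in TA and 170 in D. Its normalized counts were 2463, 1580, 7688, 4851 and 4509 in TA, 2043, 1333, 2367, 1350 and 2607 in EVP and 869, 1160, 2025, 625 and 1364 in D. TA replicate 2 fell below D replicate 3, so that TA and D overlapped. The difference between TA and D was 1.71 ± 0.38 on the log2 scale (limma, adjusted p = 0.00564). Tyrp1 (chr4:80834123-80851719, plus strand), which acts late in the synthesis of black pigment, had the second highest level per kilobase in every population (3939 in EVP, 8427 in TA and 2488 in D). It was counted at 15960, 14100, 39601, 24936 and 24561 in TA, 14490, 7155, 12579, 7412 and 14056 in EVP, and 7015, 5215, 11477, 3426 and 8046 in D. TA and D did not overlap, and TA replicate 2 was just below EVP replicate 1. Between TA and D the difference was 1.78 ± 0.32 (limma, adjusted p = 0.00128).

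Dct (chr14:118012790-118052244, minus strand), the dopachrome tautomerase, was counted at 22269, 26445, 62754, 43188 and 40325 in TA, 16032, 11465, 17866, 13356 and 23983 in EVP and 8895, 9087, 18493, 5775 and 12025 in D. Per kilobase of exon its means were 2806 in EVP, 6615 in TA and 1841 in D, below those of Pmel and Tyrp1. In each population the means per kilobase of Tyrp1, Mlana and Dct lay within 1 SD of Tyrp1 over the 5 libraries of each other. TA and D did not overlap, while EVP replicate 5 was above TA replicate 1. With limma, Dct was higher in TA than in D by 1.86 ± 0.30 (adjusted p = 4.70e-04) and lower in EVP than in TA by 1.19 ± 0.30 (adjusted p = 0.0379).

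Among the transporters, Slc45a2 (chr15:11000721-11029233, plus strand) was counted at 4276, 2382, 6162, 5837 and 5093 in TA, at 2725, 982, 2071, 2051 and 2808 in EVP and at 1251, 651, 2402, 924 and 1486 in D. TA replicate 2 was below D replicate 3, and the other 4 TA libraries were above all libraries of EVP and D. Oca2 (chr7:56239760-56536518, plus strand) was counted at 346, 449, 825, 733 and 640 in TA, at 600, 95.4, 274, 217 and 346 in EVP and at 124, 61.2, 265, 90.1 and 222 in D. TA and D did not overlap for Oca2, whereas EVP replicate 1 was within the range of TA. The difference between TA and D was 1.89 ± 0.35 for Slc45a2 (limma, adjusted p = 0.00147) and 2.10 ± 0.47 for Oca2 (limma, adjusted p = 0.00534).

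Gpr143 (chrX:152781921-152808646, plus strand), the melanosomal receptor, departed from this order. It was counted at 164, 0, 192, 173 and 260 in TA, at 341, 56.2, 124, 93.5 and 188 in EVP, and at 72.8, 73.5, 120, 96.2 and 68.3 in D. TA replicate 2 had no read of Gpr143 among 17407441, which allows up to 2.64 normalized counts at the limit of 3 reads, while the lowest of the other 4 TA libraries was 62.1 times that limit and each of the other 14 libraries had 43 reads or more. Those 4 TA libraries were all above all D libraries, with a mean of 197 ± 43.3 (SD, n = 4) against 86.1 ± 21.7 (n = 5) in D. With all 15 libraries Gpr143 passed no test. Between TA and D limma gave -0.33 ± 1.12, a value set by TA replicate 2, and without this library 1.20.

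Mitf (chr6:97807052-98021349, plus strand) was measured at 893, 635, 900, 950 and 687 normalized counts in TA, at 829, 621, 406, 639 and 498 in EVP and at 180, 236, 170, 143 and 171 in D. D was below both other populations without overlap, and EVP and TA overlapped. The mean was 813 ± 142 (SD, n = 5) in TA, 598 ± 160 in EVP and 180 ± 34.04 in D. With limma, Mitf was higher than in D by 2.17 ± 0.22 in TA (adjusted p = 4.13e-06) and by 1.70 ± 0.22 in EVP (adjusted p = 2e-05), and EVP and TA differed by 0.46 ± 0.22, which missed the threshold (adjusted p = 0.337). Sox10 (chr15:79154913-79164490, minus strand), the neural crest factor, was counted at 209, 86.1, 481, 531 and 211 in TA, at 84.3, 74.5, 151, 141 and 138 in EVP and at 118, 113, 153, 56.3 and 35.1 in D. TA replicate 2 was within the range of EVP and D, and the other 4 TA libraries were above both. The difference of Sox10 between TA and D was 1.57 ± 0.50 (limma, adjusted p = 0.0468) and lost its call in 14 of 25 alternatives, among them without replicate 1 of every population.

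Read over the list, 9 of the 10 transcripts were called higher in TA than in D, all but Gpr143, where 8.21% of all genes tested were called higher in TA. In 6 of the 10 the TA and D libraries did not overlap, against 5.56% of all genes. In 7 of the 10 the highest of all 15 values was in TA replicate 3, without which 8 were called between TA and D. The median log2 fold change was 1.87 for the 10 and 0.24 for all genes. Between EVP and TA, 3 of the 10 (Pmel, Mlana and Dct) were called higher in TA, against 1.94% of all genes, with a median of -1.13 (EVP minus TA) beside 0.09 for all genes. This count fell to 0 without EVP replicate 2, 3 or 4 and to 1 without TA replicate 3, 4 or 5. It was 1 by edgeR, 6 by DESeq2 on whole reads and 5 with the replicate number as a block. An unadjusted limma p under 0.05 was found for 8 of the 10 with all libraries. Without EVP replicate 2, 3 and 4 it was found for 5, 8 and 6. Between EVP and D, Mitf alone was called with all libraries, against 11.6% of all genes called higher in EVP, and Mitf alone had no overlap, against 10.2%. This count of 1 became 3 without EVP replicate 2 or D replicate 3 and 2 without TA replicate 3, whose spread enters the fit. With the replicate number as a block it was 5. The median there was 0.71 beside 0.46 for all genes. Each population enters 2 of the 3 comparisons, which therefore share libraries. In 9 of 10 transcripts the mean was highest in TA and lowest in D. For Gpr143 the mean was lowest in D and was 161 in EVP and 158 in TA. The TA mean includes the library without a read (197 in the other 4), and the EVP mean includes 341 in replicate 1 (median 124).

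**Figure D2:**
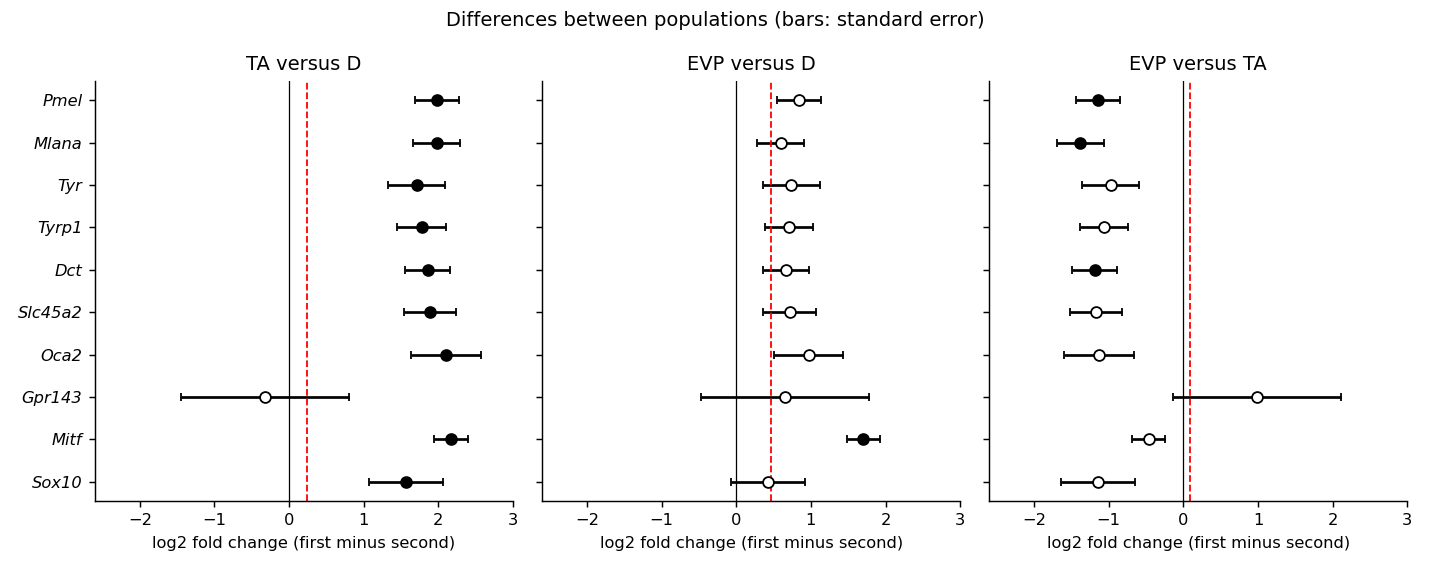
Estimated log2 fold change of each transcript (first population minus second) with its standard error from limma, in the 3 comparisons of 5 libraries with 5. Filled points passed an adjusted p of 0.05 and the dashed line is the median of all 25549 genes tested. In TA versus D the 9 filled points lie between 1.57 and 2.17, in EVP versus D only Mitf is filled, and Gpr143 has the widest bars.

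Within a library the ratios of the pigment transcripts moved far less than their levels. Reads are given here as a percentage of the Pmel reads of the same library, a ratio that no scaling between libraries can change and that is not corrected for length. Dct was 90.2%, 129%, 127%, 159% and 115% of Pmel in TA, 85.7%, 167%, 136%, 108% and 110% in EVP and 124%, 181%, 157%, 82.7% and 145% in D. The 3 populations overlapped, although Pmel itself ranged 9.81-fold over the 15 libraries. Tyrp1 ran from 64.6% to 91.7% in TA, from 60.0% to 104% in EVP and from 49.1% to 104% in D. Mlana ran from 19.8% to 31.4% in TA, from 15.5% to 33.2% in EVP and from 17.2% to 32.8% in D. For Slc45a2 the ranges were 11.6% to 21.5%, 12.9% to 16.6% and 13.0% to 20.4%, for Tyr 7.69% to 17.8%, 10.9% to 19.4% and 8.95% to 23.1%, and for Oca2 1.40% to 2.69%, 1.39% to 3.21% and 1.22% to 2.67%, each in the order TA, EVP and D. The populations thus overlapped for all 6 of these ratios.

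The 2 transcription factors kept less of a fixed ratio. Mitf was 3.61%, 3.09%, 1.83%, 3.49% and 1.96% of Pmel in TA, 4.43%, 9.05%, 3.09%, 5.18% and 2.29% in EVP, and 2.5%, 4.70%, 1.45%, 2.05% and 2.06% in D. EVP replicate 2, which had the lowest Pmel of its population, had the highest ratio, and the populations overlapped. The mean log2 ratio of Mitf to Pmel was 0.87 higher in EVP than in D, or 1.82-fold (exact permutation test of 5 libraries against 5, two-sided, p = 0.0714, adjusted over 27 ratios p = 0.643). Sox10 ranged from 0.420% to 1.95% of Pmel in TA, from 0.450% to 1.15% in EVP and from 0.422% to 2.24% in D.

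Of 27 exact permutation tests (9 ratios to Pmel in 3 comparisons) none passed the adjustment, which at this size needs at least 5 ratios at the smallest possible p, so that a single ratio could not pass. Of the 27, 2 had an unadjusted p under 0.05, both of Gpr143. Gpr143 was 0.663%, 0%, 0.390%, 0.637% and 0.740% of Pmel in TA, and 0.757% to 1.82% in EVP and 0.822% to 1.46% in D, so that TA lay below both without overlap. The exact permutation p was 0.00794 in each case, the smallest that 5 libraries against 5 can give, and 0.107 after adjustment. The size of this difference depends on the library without a read, since the log2 ratio was 2.54 lower in TA than in D with it and 0.92 lower without it, and against EVP it was 2.36 and 0.74 lower. Apart from those of Gpr143 and Mitf, no mean log2 ratio to Pmel differed between populations by more than 0.41.

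**Figure D3:**
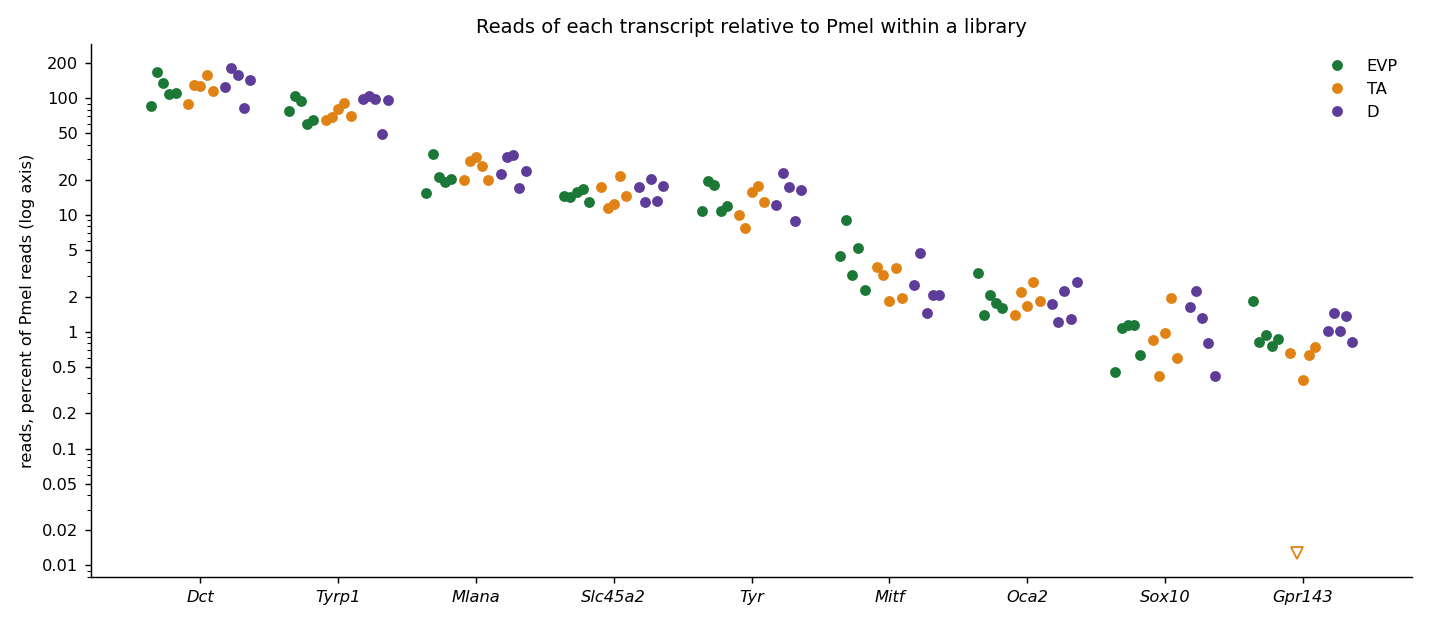
Reads of 9 transcripts as a percentage of the Pmel reads of the same library, on a log axis, with a point for each of the 15 libraries and an open triangle at the limit of 3 reads for Gpr143 in TA replicate 2. The 3 populations overlap for each transcript except Gpr143, whose TA points lie below the others, and Mitf reaches its highest ratio, 9.05%, in EVP replicate 2.

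Over all 45 pairs, the steadiest ratio was that of Mlana to Dct, with an SD of 0.19 on the log2 scale over 15 libraries and a 1.58-fold range from the lowest to the highest library. Tyrp1 to Dct followed with 0.20 and Pmel to Slc45a2 with 0.26. Among the 7 genes for pigment enzymes, structural proteins and transporters (Pmel, Mlana, Tyr, Tyrp1, Dct, Slc45a2 and Oca2) the 21 pairs had SDs of 0.19 to 0.62, with a median of 0.38, whereas the levels of the same 7 had SDs of 0.93 to 1.17. Leaving out TA replicate 2, the TA library with the least Tyr, lowered the SD of Tyr to Dct from 0.27 to 0.13. Without that library the pairs with Mitf had SDs of 0.72 to 0.90, those with Sox10 0.60 to 0.96 and those with Gpr143 0.56 to 0.94. The points of these ratios share their library, its depth and its amplification.

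**Figure D4:**
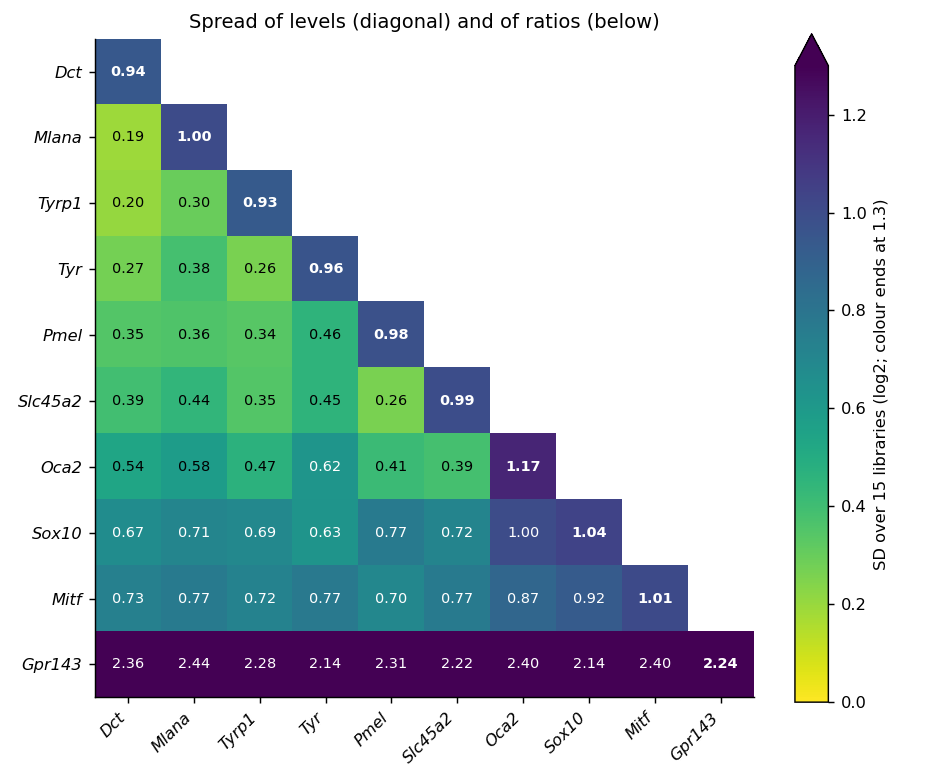
Standard deviation over the 15 libraries of the log2 level of each transcript (diagonal, bold) and of the log2 ratio of each pair of transcripts (below the diagonal). The pairs among Dct, Mlana, Tyrp1, Tyr, Pmel and Slc45a2 lie between 0.19 and 0.46 against 0.93 to 1.00 for their levels, while pairs with Mitf, Sox10 and Gpr143 are wider.

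As a description over the same 15 libraries, the log2 level of Dct had a Pearson correlation of 0.99 with the log2 sum of the 10 transcripts, to which it contributes, and those of Pmel, Mlana and Tyrp1 lay between 0.97 and 0.99. Mitf had 0.75, Sox10 0.77 and Gpr143 0.17. Among all other genes tested, the 10 most like the sum were Chchd10 (Pearson 0.97, Spearman 0.99), Ldhb, Fkbp6, Slc24a5, Ptgds, Tspan10, Pax3, Tpd52l1, Cystm1 and Rab38, the last with a Pearson correlation of 0.96. Of these, Slc24a5 is an ion exchanger of pigment cells, Pax3 is a factor of the neural crest that acts on Mitf, and Rab38 is a GTPase that brings enzymes to the melanosome. The nearest, Chchd10, Ldhb and Fkbp6, and also Ptgds, Tpd52l1 and Cystm1, are in neither of the pigment lists described below. Pmel by itself was most like Ptgds, a prostaglandin D synthase (Pearson 0.99, Spearman 0.97), Pax3, Trpm1, Tspan10 and Chchd10. Mitf was most like other genes, Mapkapk3 (Pearson 0.96, Spearman 0.88), Gstp2, Osbpl6, Gstp-ps and Fetub, and none of the 5 is among those nearest to Pmel or to the sum. Libraries of the same population share their group in these correlations.

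Genes of the pigment cell beyond the 10 were read from 2 lists that share 5 genes. In the melanocyte lineage list, 14 of 15 genes were tested (Mia had a mean below the minimum). Between TA and D, 12 of the 14 were called higher in TA, against 8.21% of all genes. Of the others, 1 was called higher in D and Kit was not called. The median log2 fold change was 1.99 beside 0.24 for all genes. Examples were Gpnmb, a melanosomal glycoprotein (19358 ± 3534 normalized counts in TA, 9207 ± 2611 in EVP and 4701 ± 1000 in D, SD, n = 5), S100b (534 ± 193 in TA and 91.2 ± 28.0 in D) and Pax3 (592 ± 236 in TA and 127 ± 73.5 in D). The exceptions were 2 receptors that endothelial and blood cells also use. Ednrb, an endothelin receptor, was highest in D (22508 ± 6350, against 5346 ± 3618 in TA and 347 ± 261 in EVP), and Kit was 2992 ± 576 in D, 2304 ± 1239 in TA and 286 ± 194 in EVP. Between EVP and TA, 5 of the 14 were called, each higher in TA, against 1.94% of all genes. Between EVP and D, 7 were called higher in EVP, against 11.6% of all genes, and 2, Kit and Ednrb, higher in D.

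The list of melanosome structure and transport held 27 genes, many of which serve lysosomes in other cells. Between TA and D, 11 of the 27 were called, each higher in TA, against 8.21% of all genes, and 16 were not called. The median log2 fold change was 0.45 beside 0.24 for all genes. Rab38 (1905 ± 583 in TA, 878 ± 266 in EVP, 404 ± 164 in D) had the order of means of 9 of the 10 transcripts. Rab32, its closest relative, and Cd63, a tetraspanin of late endosomes, were instead highest in EVP, with 2541 ± 759, 1400 ± 579 and 254 ± 100 for Rab32 and 19907 ± 3183, 14472 ± 3598 and 4311 ± 1017 for Cd63 in EVP, TA and D. Between EVP and D, 7 of the 27 were called higher in EVP, against 11.6% of all genes, with a median of 0.20 below the 0.46 of all genes. Between EVP and TA, 3 of the 27 were called higher in TA, against 1.94% of all genes, with a median of -0.26 (EVP minus TA) beside 0.09.

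The relatives of Mitf and Sox10 were also measured. Tfe3, the most abundant of the other MiT/TFE genes, had 1050 normalized counts in EVP, 695 in TA and 507 in D and was called higher in EVP than in D by 1.06 (limma, adjusted p = 5.22e-04), whereas Tfeb (85.3, 96.3 and 88.6) and Tfec (72.6, 108 and 68.0) were not called in any comparison. Sox9, a factor of cartilage and of neural crest derivatives, had 632 in EVP, 321 in TA and 28.4 in D and was called higher in EVP and in TA than in D. Sox8 (19.97, 8.36 and 1.31) was not called.

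Markers of several other cells also differed between the populations, not always in the order of the pigment transcripts. In the list of mast cells, which depend on Mitf and Kit, 6 of 7 genes were called higher in TA than in D. This compares with 8.21% of all genes. Between EVP and D, 5 of 7 were called higher in EVP, against 11.6% of all genes, and 1, Kit, higher in D. Between EVP and TA only Kit was called, higher in TA, although 7 of the 7 had an unadjusted limma p under 0.05. The list summed to 4564 to 97072 normalized counts in TA, 226 to 15486 in EVP and 2105 to 3580 in D, where nearly all of it was Kit. Without Kit, the other 6 genes (Cpa3, Mcpt4, Tpsb2, Cma1, Ms4a2 and Fcer1a) summed to 4125 to 94059 in TA, 5.53 to 14865 in EVP and 0 to 199.8 in D. In EVP these 6 genes were lowest in replicate 5 (5.53, with Mitf at 498) and highest in replicate 4 (14865, with Mitf at 639). In TA they were lowest in replicate 5 (4125, with Mitf at 687) and highest in replicate 4 (94059, with Mitf at 950). Mitf was at most 236 in D. The part of mast cell RNA in the level of Mitf was not tested.

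Of the Schwann cell list, 8 of the 10 genes tested were called higher in TA than in D, against 8.21% of all genes. Between EVP and D, 5 of 10 were called higher in EVP, against 11.6%. The list summed to 2708 to 5014 in TA, 3291 to 11669 in EVP and 210 to 719 in D. Between EVP and TA 0 of the 10 were called by limma and edgeR and 1 by DESeq2, and 3 had an unadjusted limma p under 0.05. For Sox10, which these cells share, the part of the Schwann cell markers was not tested. Keratinocyte markers were called higher in TA than in D for 8 of 8 genes, against 8.21% of all genes. Their sums were 2358 to 82759 in TA, 1718 to 9466 in EVP and 96.9 to 3044 in D. Between EVP and TA 0 of the 8 were called by limma and edgeR and 1 by DESeq2. An unadjusted p under 0.05 was found for 0 by limma but for 5 by edgeR and 5 by DESeq2. Macrophage markers were called higher in TA than in EVP for 7 of 11 genes by limma (1 called by edgeR, 8 by DESeq2), against 1.94% of all genes by limma. They were called higher in TA than in D for 2 of 11, against 8.21%. Their sums were 10352 to 48840 in TA, 2574 to 13308 in EVP and 5011 to 13769 in D. Of the erythroid genes 0 were called in each comparison by limma, edgeR and DESeq2, and 0 had an unadjusted p under 0.05, with sums of 3.74 to 15271 in TA, 18.7 to 12082 in EVP and 70.1 to 8465 in D. In each population the erythroid sums fell at every step from replicate 1 to replicate 5. The highest sum of mast cell and macrophage markers was in TA replicate 4, that of keratinocyte markers in TA replicate 2, and that of the 10 pigment transcripts in TA replicate 3. The part of these cells in the levels of the 10 transcripts was not tested.

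**Figure D5:**
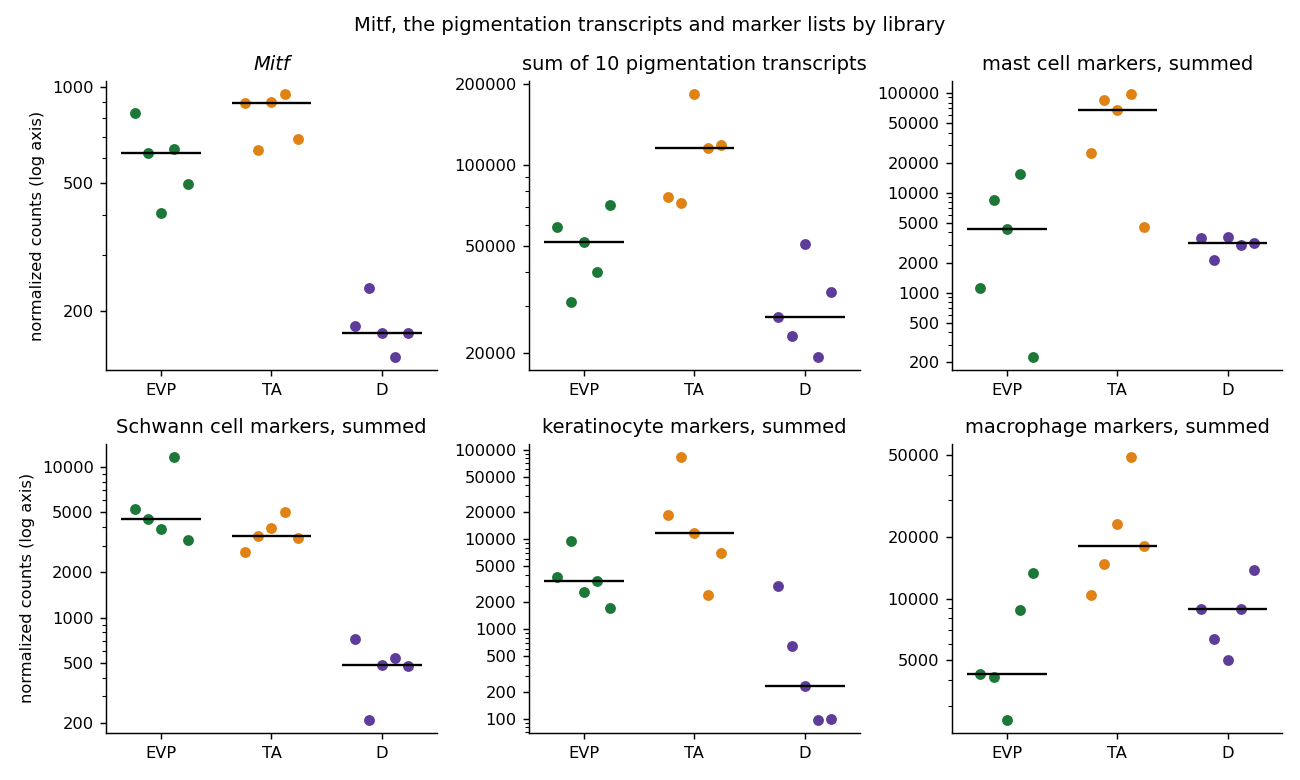
Normalized counts per library on log axes for Mitf, the sum of the 10 transcripts and the summed markers of 4 other cell types, with a line at the median of 5 libraries. TA replicate 3 is highest for the sum of the 10, TA replicate 2 for keratinocyte markers, and Mitf separates both EVP and TA from D.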

How the data were processed

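Cells of 3 populations (EVP, TA and D, 5 libraries each) were taken from B16-F0 tumors. The authors prepared libraries with a modified Smart-Seq2 protocol, which uses oligo-dT priming and PCR without molecular identifiers, mapped the reads to mm10 (GRCm38) with STAR 2.5.3a and Ensembl release 91, used HTSeq-count 0.6.1 for gene counts, and scaled these with DESeq2 1.10.1. Whether strand was used in counting is not given in the sources used here, so reads of overlapping genes on opposite strands may not be told apart. The table deposited by the authors holds the scaled counts as a signal per gene and library, that is, reads over the size factor of the library. Tables of their own comparisons, with fold changes and p-values, were not used.

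Dividing each library's values by its step gave whole numbers for 100% of values (tolerance 0.01), and these whole reads gave the depth. Intervals and limits cover counting error only. Genes averaging 5 normalized counts or more (25549) entered limma 3.58.1 as log2(normalized count + 1) in R 4.3.3 (all 15 libraries, trend, two-sided), with Benjamini-Hochberg adjustment over all genes tested and a threshold of 0.05. Ratios were formed from reads + 0.5 and compared by exact permutation (scipy 1.17.1) with adjustment over 27 tests. Exon lengths came from GENCODE M21. Mlana and Sox10 have other limits in that annotation than in the deposited table, whose coordinates are printed. Promoters came from RefSeq.

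The transcripts, lists and tests were chosen with earlier results of these data known. Genes outside the 10 were named if they belong to a list under discussion and were called without overlap (the 3 with the largest change), if they are relatives of Mitf or Sox10, if their level was near 0 where that bears on a list, or if they were among the most correlated (10 for the sum, 5 each for Pmel and Mitf). Tfe3, Tfeb and Tfec, and Sox8 and Sox9, are named as relatives. Tests were checked on simulated data. Alternatives were a pseudocount of 0.5 or 8, a minimum mean of 20 or none, scaling to the same total, fits without the third population, a block for the replicate number, edgeR 4.0.16, DESeq2 1.42.0, and leaving out each library or replicate 1 of every population.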

Additional observations from a re-analysis of the deposited data

Results flagged for a closer look

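In 60 groups of 5 libraries (levels of the 10 transcripts, the ratios of 9 to Pmel and the share of all reads on the 10), 3 had a library far from the other 4, with a gap to its neighbour over 0.71 of the whole range. About 1 in 20 groups does so by chance. Mlana was 15451 normalized counts in TA replicate 3 against 4898 to 7121 in the other TA libraries. Tyrp1 was 49.1% of the Pmel reads in D replicate 4 against 96.8% to 104% in the other D libraries. Gpr143 was 1.82% of the Pmel reads in EVP replicate 1, the library with the fewest reads, against 0.757% to 0.946% in the other EVP libraries.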

How the results depend on the processing

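The count of transcripts called between TA and D stayed at 8 or 9 under all 25 alternatives. Between EVP and D the main count of 1 became 2 with a minimum mean of 20 and by DESeq2 and ranged from 1 to 3 with single libraries left out (3 without EVP replicate 2 or D replicate 3, 2 without TA replicate 3). Between EVP and TA the main count of 3 became 1 with no minimum mean, by edgeR and without replicate 1 of every population, 6 by DESeq2, and 0 to 4 with single libraries left out (0 without EVP replicate 2, 3 or 4, 1 without TA replicate 3, 4 or 5). All genes called there (893) were 1900 by DESeq2, 522 without replicate 1 of every population, and 428 to 1209 with single libraries left out, with 428 without EVP replicate 2, 471 without EVP replicate 3 and 568 without TA replicate 3. The value of Gpr143 changed sign between EVP and TA by edgeR (-0.038) and ranged from -0.54 to 1.47 with single libraries left out, and between TA and D with a pseudocount of 8 (0.20), by edgeR (0.84) and by DESeq2 (0.87) and ranged from -0.81 to 1.20, where TA replicate 2, the library with no read, decided the sign. Of 750 alternative values for single transcripts, 686 kept direction and side of the threshold, 40 lost and 18 gained a call, and 6 changed sign. Scaling to the same total moved the median of all genes from 0.09 to -0.08 between EVP and TA. The exact tests of the ratios to Pmel cannot pass singly at this size, so that their 0 passes under the alternatives show nothing about stability. Apart from the sign of Gpr143, the cause of these changes was not tested.

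With the replicate number as a block, 5 transcripts were called between EVP and D (Pmel, Tyrp1, Dct and Slc45a2 beside Mitf), 5 between EVP and TA and 9 between TA and D. Same-numbered libraries deviated together with correlations of -0.14 to 0.69, above 0.1 in 11 of 15 pairs. Each library was matched to its best partner once in every comparison it enters, and 23 of these 30 matches fell on its own number. This is a hint from the data that the numbers pair the libraries, although the 30 matches share libraries. The labels do not say what a number marks and 4 pairs were not above 0.1, so the fit without the block was kept. The counts between EVP and D and between EVP and TA therefore depend on a pairing that is not settled.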
